A study of Citrullus lanatus with 36 samples.

Results

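The genes described here are the 37 cellulose synthase and cellulose synthase-like genes of oriental melon flesh, taken as every row whose protein description contains the words cellulose synthase, out of 25121 named genes in the table. By the names in their descriptions they are 8 cellulose synthases (CesA), 9 CSLD, 8 CSLG, 6 CSLE, 5 CSLH and 1 CSLB genes. The choice used the descriptions and no expression value. Of the 37, 36 carry an annotated melon identifier and 1 is a locus that the study's assembly added outside the annotation, and 34 carry the cellulose synthase domain PF03552, which 1 other gene in the table also carries. All 37 were above 0 in at least 1 library and were tested.

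Cellulose synthases are plasma membrane enzymes that extend glucan chains from UDP-glucose and work together in a complex. In Arabidopsis, CESA1, CESA3 and a CESA6-type subunit, the type to which CESA2 belongs, build the complex of the growing primary wall, whereas CESA4, CESA7 and CESA8 build that of the secondary wall of xylem and fibres. The cellulose synthase-like families share the catalytic fold. Known roles are in tip growth and cell plates for CSLD, in mixed-linkage glucan for a barley CSLH, and in a transfer of glucuronic acid to triterpenoids for a spinach CSLG. Softening of a fleshy fruit involves the disassembly of these walls, and NOR is a NAC transcription factor known from tomato for its part in ripening.

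RNA of fruit flesh was sequenced from 3 genotypes at 4 stages, with 3 libraries in each of the 12 groups and 36 in all. The genotypes were the oriental melon cultivar 'Boyangjiuhao' as wild type (WT), a homozygous CRISPR mutant of CmNOR in that cultivar (Cmnor), and plants heterozygous for the edited gene (CmNOR/Cmnor) that came from a cross of the mutant with 'Boyangjiuhao'. The stages were 33, 36 and 39 days after pollination (DAP) and 6 d of storage, for which fruits were put aside at 36 DAP. The mutant represents 1 edited line, so that an effect of the edit and any other difference carried by that line cannot be told apart, and the heterozygote is the progeny of the same line. By the study's methods 3 fruits per genotype were taken at each storage time, and at least 3 fruits per ripening stage. The labels do not tie a library to a fruit, so the p-values measure the spread between these libraries. The GEO record names watermelon (Citrullus lanatus) as the organism, whereas 23232 of the named genes carry melon identifiers and most descriptions are of melon proteins.

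Levels are given in FPKM, fragments relative to transcript length and to the mapped fragments of the library, a scale per length on which genes can be compared. A mean is given with its standard deviation (SD) over the 3 libraries of a group. The steps between low values gave depths of 17.8 to 36.9 M fragments a library (M, mega), at which a single fragment on 1 kb of transcript adds 0.0271 to 0.0563 FPKM. A gene was called where limma, fitted to log2(FPKM + 1) over all 36 libraries, gave a log2 ratio of 1 or more in size, up or down, with an adjusted p under 0.05. On that scale the change of low genes is understated, whereas the fold ratios printed beside it are of mean FPKM. The flesh differed widely between genotypes. For genes averaging 1 FPKM or more over the libraries, the median log2 ratio of Cmnor against WT was 0.52, 0.49, 0.31 and 0.45 at 33, 36, 39 DAP and 6 d of storage, and giving every library the same median shifted it by -0.56, -0.56, -0.35 and -0.57. Every call named below that this scaling removed is stated with its value.

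Marker lists of other tissues and states moved with the genotype, not all in 1 direction. Of all genes tested, 22.8, 22.9, 19.8 and 21.4% were called higher in Cmnor over the stages, and 6.37, 6.79, 8.65 and 6.81% lower. Of 33 phloem genes, summed FPKM ranged over libraries from 65.7 to 90.3 in WT, 725 to 838 in CmNOR/Cmnor and 10147 to 11453 in Cmnor at 36 DAP. At that stage 22 of them (66.7%) were called higher and 0 lower in Cmnor, with 12 listed at 0 in WT and 1 in Cmnor. The 20 ripening flesh genes summed to between 9252 and 15072 FPKM in WT and 679.6 and 1637 FPKM in Cmnor over the stages. By count 5, 5, 6 and 7 of them were called higher in Cmnor (25, 25, 30 and 35%) and 6 lower at each stage (30%). Their median log2 ratios were 0.08, 0.01, 0.19 and 0.25. The 28 xylem and secondary wall genes summed to 106 to 117, 104 to 119.8, 106 to 115 and 86.6 to 87.7 FPKM in WT over the stages, against 87.1 to 91.6, 155 to 161, 111 to 120.0 and 119 to 128 FPKM in Cmnor. Of them 5, 9, 5 and 7 were called higher (17.9, 32.1, 17.9 and 25%) and 2, 1, 1 and 0 lower (7.14, 3.57, 3.57 and 0%). The shares called higher were near or below those of all genes except at 36 DAP. At 6 d of storage the 14 epidermis and cuticle genes summed to 154 to 259 FPKM in WT, 80.0 to 95.9 FPKM in CmNOR/Cmnor and 20.4 to 29.1 FPKM in Cmnor, but at 36 DAP to 9.28 to 14.9, 8.09 to 9.10 and 63.6 to 87.1 FPKM. The 12 seed genes summed to 45.6 to 48.2 FPKM in WT against 78.6 to 84.4 FPKM in Cmnor at 33 DAP, and to 65.8 to 71.7 against 104 to 110 FPKM at 6 d of storage. At 36 DAP their sums overlapped, at 77.0 to 89.0 against 74.9 to 86.6 FPKM. At 39 DAP they were 85.21 to 104.7 FPKM in WT against 72.3 to 85.18 FPKM in Cmnor. The 52 heat shock genes summed to 3091 to 3307 FPKM in WT against 1633 to 1802 FPKM in Cmnor at 33 DAP. At 36 DAP the heat shock sums were 4844 to 11020.4 FPKM in WT, 2542 to 2871 FPKM in CmNOR/Cmnor and 5079 to 5503 FPKM in Cmnor. In CmNOR/Cmnor 13 of the 52 (25%) were called lower at that stage, against 1.22% of all genes. Their part in the levels below was not tested, and in flesh as a whole fewer cells of a type and less RNA per cell cannot be told apart.

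Of the 37 genes, 25 reached a group mean of 1 FPKM and 19 a group mean of 5 FPKM. The expressed set was unevenly spread over the families. All 8 CesA genes passed 1 FPKM, whereas 2 of 6 CSLE and 1 of 5 CSLH genes did. The remaining members of those families stayed at or under 0.403 FPKM and 0.0982 FPKM in every library. Summed over the 37 genes, the level was 322 ± 18.8, 340.4 ± 41.8, 425 ± 19.5 and 286 ± 13.1 FPKM in WT over the 4 stages, 431 ± 19.6, 443 ± 12.5, 436 ± 40.9 and 295 ± 17.04 FPKM in the heterozygote, and 565 ± 22.9, 719 ± 9.20, 549.7 ± 62.1 and 713 ± 32.9 FPKM in Cmnor. As deposited, the sum was highest in Cmnor at every stage, but with every library at the same median it was highest in CmNOR/Cmnor at 33 DAP (383 ± 18.1, 529 ± 31.6 and 431 ± 31.6 FPKM in the order WT, heterozygote, mutant) and at 39 DAP (454 ± 17.8, 499 ± 14.8 and 446 ± 54.8 FPKM). A single gene, CSLE6 MELO3C024951.2, held 17.8 to 34.97% of it in WT and 40.7 to 53.7% in Cmnor.

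**Figure D1:**
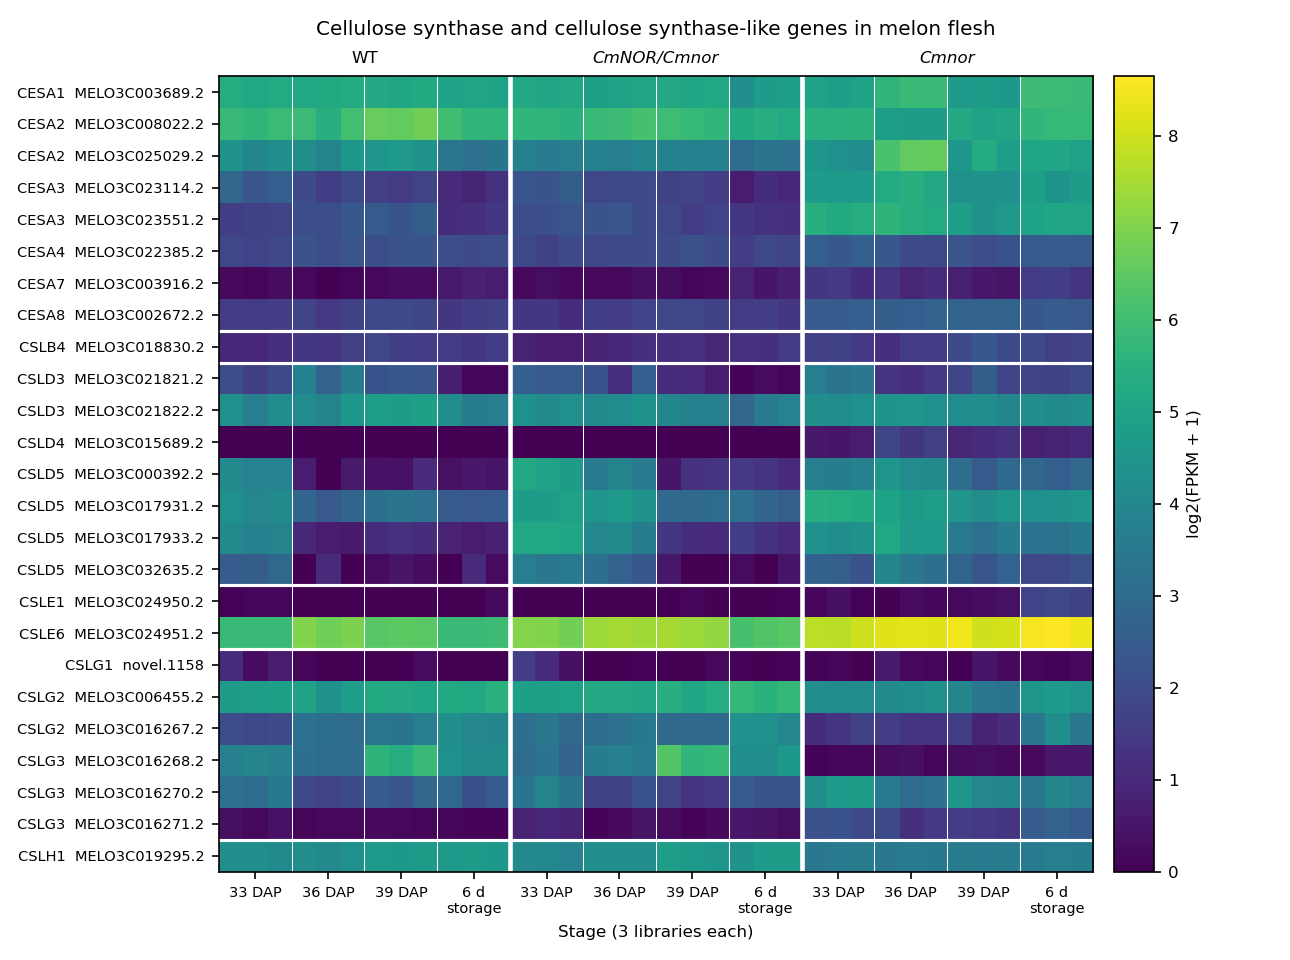
Heat map of log2(FPKM + 1) for the 25 cellulose synthase and cellulose synthase-like genes with a group mean of at least 1 FPKM (rows, by class) in each of the 36 libraries (columns, by genotype and then by stage). The row of CSLE6 MELO3C024951.2 is the brightest in every CmNOR/Cmnor and Cmnor library, whereas in some WT libraries that of CESA2 MELO3C008022.2 is brighter. The CESA3 rows are bright in Cmnor alone, and the row of CSLG3 MELO3C016268.2 is dark in the 12 Cmnor libraries.

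Against WT, Cmnor flesh had 8 of the 37 genes called higher and 1 lower at 33 DAP (21.6 and 2.70%, against 22.8 and 6.37% of all 24901 genes tested). At 36 DAP 11 were higher and 3 lower (29.7 and 8.11%, against 22.9 and 6.79% of all genes). At 39 DAP 10 were higher and 5 lower (27.0 and 13.5%, against 19.8 and 8.65%), and at 6 d of storage 12 and 2 (32.4 and 5.41%, against 21.4 and 6.81%). The shares lay near those of all genes at 33 DAP. At the other stages the share called higher was above that of all genes, a difference that was not tested. The median log2 ratio of the 37 was 0.08, 0.14, 0.01 and 0.30, beside 0.21, 0.17, 0.06 and 0.14 over all genes tested. With every library at the same median the calls split into 5 higher and 3 lower, 9 and 6, 8 and 6, and 11 and 3 over the 4 stages. Called at all 4 stages were 6 of the 37 higher and 1 lower, against 10.5 and 2.94% of all genes. The 6 were both CESA3 genes, CSLD5 MELO3C017931.2, CSLE6 MELO3C024951.2 and the CSLG3 genes MELO3C016270.2 and MELO3C016271.2, of which both CESA3 genes and MELO3C016271.2 stayed called at all 4 stages with the same median. The 1 lower gene was CSLG3 MELO3C016268.2. With the same median 3 were called lower at all 4 stages, MELO3C016268.2, CSLG2 MELO3C006455.2 and CSLH1 MELO3C019295.2.

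The clearest difference among the CesA genes was in CESA3, the subunit that in Arabidopsis is present in every primary wall complex. CESA3 MELO3C023114.2 (chromosome 8, 17858050 to 17864075, minus strand, in the DHL92 genome used by the study) stood at 3.08, 2.06 and 2.81 FPKM in the 3 WT libraries at 36 DAP and at 38.4, 41.9 and 36.4 FPKM in Cmnor. All 3 mutant libraries lay above all 3 WT libraries. The mean rose from 2.65 ± 0.525 to 38.9 ± 2.80 FPKM, 14.7 ± 3.10-fold (log2 ratio 3.46 with a standard error of 0.13, adjusted p = 1.3e-18). At 33 DAP it read 6.31, 4.02 and 5.05 FPKM in WT and 26.1, 24.1 and 24.4 FPKM in Cmnor (4.85 ± 1.11-fold, adjusted p = 7.8e-14). After 6 d of storage WT libraries read 1.06, 0.840 and 1.39 FPKM while those of the mutant read 28.3, 21.4 and 26.4 FPKM (23.2 ± 6.68-fold, adjusted p = 3.1e-19). At 39 DAP the ratio was 9.37 ± 1.38 (adjusted p = 2.1e-16). The CmNOR/Cmnor means, 4.17 ± 0.611, 2.79 ± 0.163, 2.18 ± 0.223 and 0.931 ± 0.283 FPKM, were not called against WT at any stage. The gene shares 1048 bp with MELO3C023115.2 on the other strand, which the library kit as described does not separate, but that neighbour was at 0 in every WT and CmNOR/Cmnor library and at or under a group mean of 0.554 FPKM in Cmnor.

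The other CESA3 gene, MELO3C023551.2 (chromosome 1, 33678887 to 33686179, plus strand), lies on another chromosome and differed in the same direction. WT libraries read 2.02, 2.27 and 2.44 FPKM at 33 DAP and Cmnor libraries 41.5, 36.7 and 40.5 FPKM, a rise of 17.6 ± 2.02-fold (log2 ratio 3.64 with a standard error of 0.11, adjusted p = 1.1e-20). After storage WT stood at 1.17, 1.29 and 1.64 FPKM and Cmnor at 31.4, 33.5 and 32.1 FPKM, 23.6 ± 4.33-fold higher (adjusted p = 3.2e-21). No mutant library overlapped a WT library at any stage. The ratio was smaller at 36 DAP, 12.1 ± 2.22, and at 39 DAP, 5.56 ± 1.07 (adjusted p = 1.3e-19 and 5.5e-16), where WT stood at 4.37 ± 0.536 FPKM and Cmnor at 24.3 ± 3.59 FPKM. The CmNOR/Cmnor means were 3.48 ± 0.382, 3.48 ± 0.507, 2.30 ± 0.340 and 1.43 ± 0.129 FPKM.

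CESA1 MELO3C003689.2, the obligate partner of CESA3 in Arabidopsis, passed the threshold in no comparison. Its WT means were 37.6 ± 2.48, 36.8 ± 2.34, 35.5 ± 2.38 and 32.0 ± 0.511 FPKM and its Cmnor means 30.2 ± 1.88, 54.6 ± 4.16, 24.2 ± 1.15 and 58.1 ± 1.32 FPKM. The log2 differences of -0.31, 0.56, -0.54 and 0.84 had adjusted p-values of 0.0036, 3.5e-06, 6.1e-06 and 2.5e-09, but were under 1 in size and became -0.93, -0.08, -0.91 and 0.19 with the same median, changing sign at 36 DAP. The balance of the subunits therefore differed between genotypes, a quantity that does not depend on the scaling of a library. Per unit of CESA1, the CESA3 genes together stood at 0.195 ± 0.0146, 0.167 ± 0.0197, 0.183 ± 0.0120 and 0.0771 ± 0.0162 in WT. In CmNOR/Cmnor the ratio was 0.219 ± 0.0210, 0.204 ± 0.0180, 0.129 ± 0.00578 and 0.0988 ± 0.0164. In Cmnor it was 2.13 ± 0.0424, 1.4998 ± 0.217, 1.84 ± 0.190 and 0.993 ± 0.0438, so that CESA3 was close to or above CESA1. CESA3 made up 2.53 to 6.24% of the summed FPKM of the 5 primary wall CesA genes in WT, 3.20 to 7.43% in CmNOR/Cmnor and 28.7 to 40.4% in Cmnor.

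The pair of CESA2 genes differed in opposite directions. CESA2 MELO3C008022.2, the CesA gene with the highest mean over the 36 libraries, was lower in Cmnor at 39 DAP, at 36.3, 30.5 and 33.8 FPKM against 97.6, 93.9 and 108 FPKM in WT. All 3 mutant libraries lay below all 3 WT libraries, 2.98 ± 0.339-fold lower in the mean (log2 ratio -1.55 with a standard error of 0.11, adjusted p = 3.1e-13). At 33 DAP and 6 d of storage its log2 differences were -0.28 and -0.03. At 36 DAP the difference was -0.99 (adjusted p = 2.9e-09), just short of the fold threshold and past it with the same median. Its means were 54.8 ± 3.42, 55.0 ± 10.7 and 54.4 ± 7.02 FPKM in WT and 44.9 ± 0.971, 26.8 ± 1.12 and 53.0 ± 2.35 FPKM in Cmnor at those stages, and 48.4 ± 2.74, 62.3 ± 6.77, 55.5 ± 5.38 and 38.9 ± 1.93 FPKM in CmNOR/Cmnor over the 4 stages. CESA2 MELO3C025029.2 was instead higher in Cmnor at 36 DAP, at 70.6, 93.7 and 96.4 FPKM against 18.3, 14.1 and 23.0 FPKM in WT. The libraries did not overlap, and the mean was 4.71 ± 1.38-fold higher (log2 ratio 2.19 with a standard error of 0.16, adjusted p = 1.1e-12). It was also higher at 6 d of storage, at 31.8 ± 1.72 against 9.14 ± 0.533 FPKM (adjusted p = 2.1e-10), and was not called at 33 and 39 DAP, with log2 differences of 0.14 and 0.35.

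**Figure D2:**
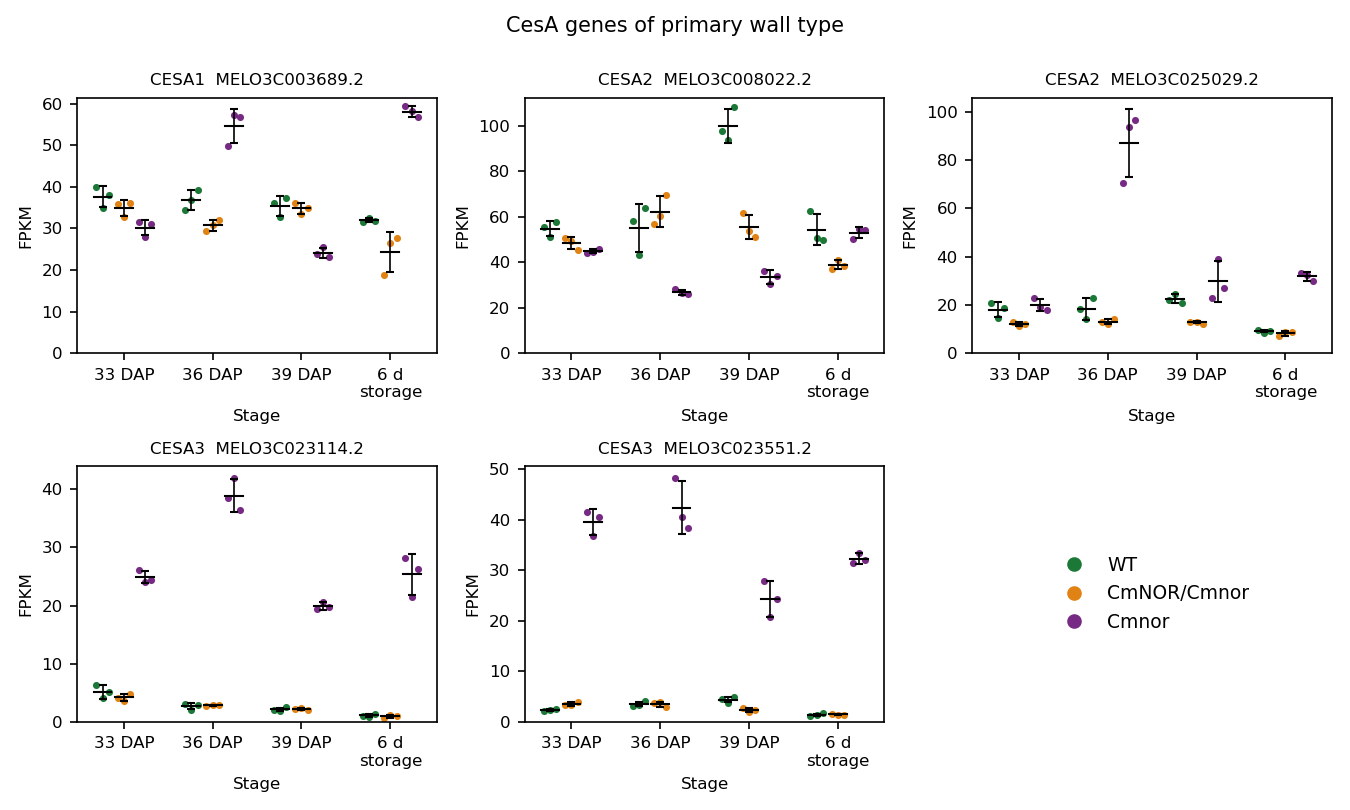
FPKM of the 5 primary wall CesA genes (CESA1, 2 CESA2 and 2 CESA3 genes, one panel each) by stage and genotype. Dots are libraries, bars the mean of 3 and error bars the SD; both CESA3 panels show high bars only for Cmnor, up to 38.9 FPKM for MELO3C023114.2 and 42.4 FPKM for MELO3C023551.2.

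The 3 secondary wall CesA genes were low throughout. CESA8 MELO3C002672.2 had means of 2.13 ± 0.378 FPKM (WT) and 5.22 ± 0.478 FPKM (Cmnor) at 36 DAP, with log2 differences of 0.98, 0.9952, 0.87 and 0.86 over the stages that narrowly missed the threshold, and CESA4 MELO3C022385.2, which shares 800 bp with a gene on the other strand, was not called in any comparison. CESA7 MELO3C003916.2 was called higher in Cmnor at 33 DAP only, at 1.58, 1.73 and 1.17 against 0.164, 0.0874 and 0.209 FPKM (log2 ratio 1.11 with a standard error of 0.10, adjusted p = 7.5e-11), and fell short of the fold threshold with the same median (0.85). By count, 3 of the 8 CesA genes were called higher at 33 DAP, 3 at 36 DAP, 2 at 39 DAP and 3 at 6 d of storage, and 1 was called lower, at 39 DAP. The shares called higher were 37.5, 37.5, 25 and 37.5%, against 22.8, 22.9, 19.8 and 21.4% of all genes. The 1 lower was 12.5%, against 8.65%, and these differences were not tested. No CesA gene was called in CmNOR/Cmnor against WT at any stage by limma, where at most 1.88% of all genes were called higher and 2.38% lower. At an unadjusted p under 0.05, 1 was higher and 2 lower at 33 DAP, and 0 were higher and 3 lower at each later stage.

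Among the CSLD genes the differences at 36 DAP were greatest in those described as CSLD5. In Arabidopsis CSLD5 works at the cell plate of dividing cells. CSLD5 MELO3C017933.2 (chromosome 7, 28166596 to 28168290, minus strand), the member of these families that the study itself names, was low in WT from 36 DAP on, and at 36 DAP it was higher in both other genotypes. Its libraries read 16.8, 13.0 and 13.7 FPKM in WT, 34.9, 34.98 and 32.6 FPKM in CmNOR/Cmnor, while Cmnor read 19.5, 18.5 and 20.1 FPKM at 33 DAP. At 36 DAP they read 0.981, 0.574 and 0.535 FPKM, 14.99, 16.3 and 11.6 FPKM and 34.5, 24.1 and 23.8 FPKM in the same order. The 3 genotypes did not overlap at either stage, but their order differed, with the heterozygote highest at 33 DAP and the mutant highest at 36 DAP. At 36 DAP the gene was 39.4 ± 16.5-fold higher in Cmnor (log2 ratio 4.06 with a standard error of 0.15, adjusted p = 5.8e-19) and 20.5 ± 8.07-fold higher in CmNOR/Cmnor (log2 ratio 3.17 with a standard error of 0.15, adjusted p = 4.3e-14) than in the same WT libraries. At 33 DAP it was called higher in CmNOR/Cmnor, 2.36 ± 0.344-fold (adjusted p = 1.1e-06), whereas the log2 difference of Cmnor was 0.40.

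At 39 DAP MELO3C017933.2 read 1.19, 1.38 and 1.15 FPKM in WT, 1.60, 1.18 and 1.07 FPKM in CmNOR/Cmnor, while Cmnor read 10.95, 8.29 and 11.7 FPKM. At 6 d of storage it read 0.804, 0.561 and 0.731 FPKM, 2.01, 1.39 and 1.07 FPKM and 8.91, 8.47 and 10.2 FPKM. By then the heterozygote was no longer called against WT (log2 differences 0.02 and 0.54), and the mutant was (log2 ratios 2.33 and 2.58, adjusted p = 1.1e-13 and 1e-14). The heterozygote was thus called above WT at 33 and 36 DAP and at neither later time, whereas the mutant was called above it from 36 DAP on. At 6 d of storage every CmNOR/Cmnor library still lay above every WT library, with means of 1.49 ± 0.479 and 0.699 ± 0.125 FPKM. The study reports the gene as higher in the heterozygote than in WT after storage, by RNA-seq and RT-qPCR.

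CSLD5 MELO3C017931.2, in the same cluster of 4 CSLD5 models within 25.4 kb of chromosome 7, was called higher in Cmnor at all 4 stages and in CmNOR/Cmnor at 36 DAP. At 36 DAP its libraries read 6.13, 4.34 and 6.08 FPKM in WT, 21.8, 24.3 and 20.7 FPKM in CmNOR/Cmnor, while Cmnor read 31.7, 25.3 and 27.1 FPKM, without overlap between WT and either genotype. The mean was 4.03 ± 0.818-fold higher in CmNOR/Cmnor (log2 ratio 1.85 with a standard error of 0.12, adjusted p = 3.1e-11) and 5.09 ± 1.12-fold higher in Cmnor (log2 ratio 2.16 with a standard error of 0.12, adjusted p = 8.2e-15). The Cmnor means at 33, 39 DAP and 6 d of storage were 40.1 ± 3.15, 21.0 ± 2.15 and 20.4 ± 1.65 FPKM against 16.99 ± 2.16, 8.62 ± 0.462 and 4.46 ± 0.138 FPKM in WT and 27.1 ± 2.37, 6.87 ± 0.174 and 6.63 ± 1.72 FPKM in CmNOR/Cmnor. The log2 ratios of Cmnor were 1.20, 1.19 and 1.97 (adjusted p = 2e-09, 2.3e-09 and 6e-14), of which those at 33 and 39 DAP fell to 0.58 and 0.82 with the same median. Its other neighbour MELO3C017935.2 reached no more than 0.550 FPKM in any library and was not called. A pair of CSLD5 models, MELO3C032635.2 of 165 bp between MELO3C017931.2 and MELO3C017933.2 and MELO3C000392.2 of 362 bp on unplaced sequence, followed MELO3C017933.2, with means at 36 DAP of 0.341 and 0.376 FPKM in WT, 5.89 and 12.1 FPKM in the heterozygote, and 10.8 and 18.6 FPKM in Cmnor. Models this short may hold fragments of their near copies, so their values are uncertain.

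CSLD3, known in Arabidopsis from root hair tip growth, had a member that changed direction with the stage. CSLD3 MELO3C021821.2 (chromosome 11, 7089745 to 7094755, minus strand) was higher in Cmnor at 33 DAP, at 11.9, 9.06 and 9.88 FPKM against 3.17, 2.01 and 2.81 FPKM in WT (log2 ratio 1.63 with a standard error of 0.27, adjusted p = 6.4e-06). At 36 DAP it was lower in Cmnor, at 1.498, 1.23 and 1.77 FPKM against 13.1, 5.54 and 11.3 FPKM in WT and 3.48, 1.27 and 5.03 FPKM in CmNOR/Cmnor (log2 ratio -2.06 with a standard error of 0.27, adjusted p = 1.4e-07 for Cmnor). The WT libraries of that group were widely spread, yet none overlapped another genotype. In those libraries, which were the 3 shallowest (17.8 M fragments in replicate 2), the heat shock genes summed to 8824, 4844 and 11020 FPKM in replicates 1, 2 and 3, lowest in replicate 2 as for this gene, and their part in the result was not tested. Without WT 36 DAP replicate 2 the log2 ratio of Cmnor was -2.40 (adjusted p = 1.5e-08). After storage WT stood at 0.661, 0.0841 and 0.104 FPKM, CmNOR/Cmnor at 0.0517, 0.178 and 0.118 FPKM and Cmnor at 2.44, 2.27 and 2.74 FPKM, where the mutant was again higher (log2 ratio 1.47, adjusted p = 2.8e-05). CmNOR/Cmnor was called lower at 36 and 39 DAP (log2 ratios -1.40 and -1.32, adjusted p = 0.00046 and 0.00052). With a model of the 2 groups alone the call at 36 DAP was lost at adjusted p = 0.19, beside 4.5e-05 to 0.0086 under the other alternatives run. At 39 DAP the means were 3.82 ± 0.309 FPKM in WT, 0.943 ± 0.293 FPKM in CmNOR/Cmnor and 3.27 ± 1.42 FPKM in Cmnor.

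The adjacent CSLD3 gene MELO3C021822.2, which had the highest mean of the CSLD genes over the 36 libraries, was called in neither genotype against WT at any stage. Its WT means were 16.2 ± 3.68, 18.1 ± 4.54, 27.2 ± 1.15 and 13.6 ± 3.57 FPKM, those of CmNOR/Cmnor 18.3 ± 1.38, 18.1 ± 1.83, 13.5 ± 0.982 and 10.1 ± 3.65 FPKM, and those of Cmnor 18.3 ± 1.03, 21.1 ± 1.25, 16.8 ± 1.79 and 17.8 ± 1.52 FPKM. Of the genes with roles in pollen tubes in Arabidopsis, CSLD4 MELO3C015689.2 was at or under 0.038 FPKM in every WT and CmNOR/Cmnor library and read 2.52, 1.63 and 2.13 FPKM in Cmnor at 36 DAP, where all 3 WT libraries were listed at 0 (log2 ratio 1.62, adjusted p = 8.8e-18). It was also called at 39 DAP (log2 ratio 1.06), a call lost with the same median (0.91) or without Cmnor 39 DAP replicate 3 (0.99). CSLD1 MELO3C006326.2, which shares 948 bp with a gene on the other strand, stayed at or under 0.465 FPKM and was not called. In Cmnor 2, 5, 5 and 5 of the 9 CSLD models were called higher over the 4 stages and 1 lower, MELO3C021821.2 at 36 DAP, and these counts include both short models. The shares called higher were 22.2, 55.6, 55.6 and 55.6%, against 22.8, 22.9, 19.8 and 21.4% of all genes. They were near that of all genes at 33 DAP and above it later, a difference that was not tested. The 1 lower was 11.1%, against 6.79% of all genes.

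The most abundant member was CSLE6 MELO3C024951.2 (chromosome 1, 10640859 to 10646696, plus strand), of a family whose role is little known. It read 57.3, 57.0 and 57.5 FPKM in WT, 131, 127 and 111 FPKM in CmNOR/Cmnor, while Cmnor read 220.4, 217 and 253 FPKM at 33 DAP. As deposited, the 3 genotypes were fully apart and ordered by the number of mutant alleles, whereas with the same median CmNOR/Cmnor and Cmnor overlapped. The mean was 2.15 ± 0.185-fold higher in CmNOR/Cmnor (log2 ratio 1.09 with a standard error of 0.09, adjusted p = 1.2e-09) and 4.02 ± 0.345-fold higher in Cmnor (log2 ratio 1.98 with a standard error of 0.09, adjusted p = 8.5e-17). At 36 DAP the means were 119 ± 10.3, 171 ± 5.34 and 305 ± 8.99 FPKM, and at 39 DAP 85.5 ± 2.32, 164 ± 14.0 and 296 ± 51.5 FPKM, in the same order. The log2 differences of CmNOR/Cmnor, 0.53 and 0.93, were under the threshold at those stages, though the second passed it with the same median. Those of Cmnor were 1.36 and 1.77 (adjusted p = 3.5e-13 and 1.1e-15). The first of these fell to 0.71 with the same median. After storage WT returned to 55.6, 56.9 and 59.2 FPKM and CmNOR/Cmnor to 76.9 ± 7.97 FPKM, whereas Cmnor stood at 366, 401 and 346 FPKM, 6.48 ± 0.522-fold above WT (log2 ratio 2.67 with a standard error of 0.09, adjusted p = 9.9e-20).

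CSLE1 MELO3C024950.2, in the same 29.7 kb stretch as MELO3C024951.2 and overlapping the near-silent CSLE1 model MELO3C028925.2 by 297 bp, was close to 0 in every group but 1. It read 2.36, 2.63 and 2.23 FPKM in Cmnor after storage and 0, 0 and 0.178 FPKM in WT (log2 ratio 1.69 with a standard error of 0.06, adjusted p = 3e-19). Over the other groups its highest mean was 0.222 FPKM in Cmnor at 39 DAP. The other 4 CSLE models were at or under 0.403 FPKM in every library and were not called.

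**Figure D3:**
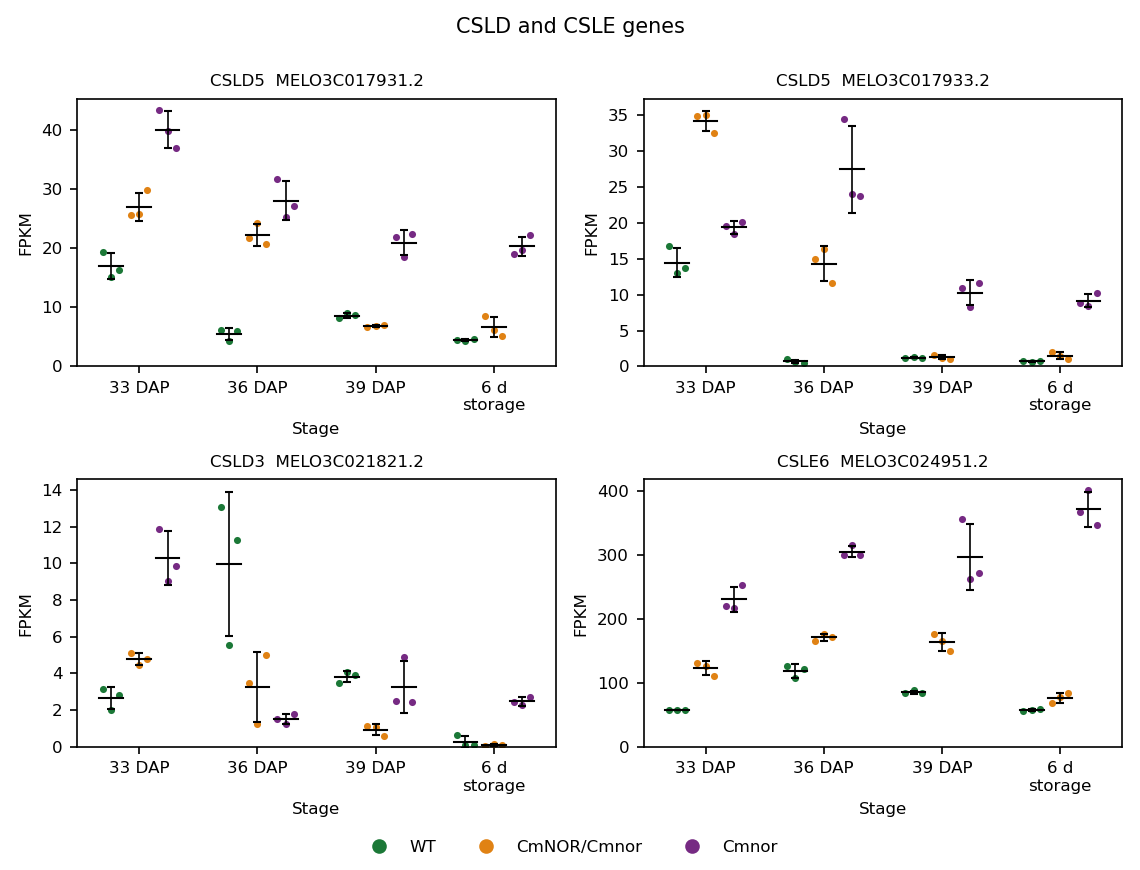
FPKM of CSLD5 MELO3C017931.2, CSLD5 MELO3C017933.2, CSLD3 MELO3C021821.2 and CSLE6 MELO3C024951.2 by stage and genotype, with dots for libraries, bars for the mean of 3 and error bars for the SD. In the panels of both CSLD5 genes CmNOR/Cmnor is high at 33 and 36 DAP and low from 39 DAP, and in the panel of CSLE6 it lies between WT and Cmnor at every stage.

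The CSLG genes held the member that, as deposited, was called lower in Cmnor at all 4 stages. CSLG3 MELO3C016268.2 (chromosome 7, 22954451 to 22959119, minus strand) lies in a run of 6 CSLG genes within 115.5 kb. Its libraries read 47.8, 40.2 and 57.8 FPKM in WT, 79.2, 50.8 and 53.0 FPKM in CmNOR/Cmnor, while Cmnor read 0.218, 0.235 and 0.169 FPKM at 39 DAP. The heterozygote overlapped WT, and the mutant was 234 ± 57.5-fold lower than WT (log2 ratio -5.35 with a standard error of 0.14, adjusted p = 6.1e-22). At 33 DAP WT stood at 12.7, 14.2 and 12.6 FPKM, CmNOR/Cmnor at 7.33 ± 1.64 FPKM and Cmnor at 0.0542, 0.0991 and 0.0929 FPKM (161 ± 48.8-fold lower, adjusted p = 1.5e-18). At 36 DAP the means were 7.54 ± 0.358, 11.7 ± 0.777 and 0.199 ± 0.0810 FPKM, and at 6 d of storage 17.6 ± 1.57, 20.4 ± 2.58 and 0.383 ± 0.180 FPKM (log2 ratios of Cmnor -2.83 and -3.75, adjusted p = 6e-16 and 9.8e-19). In both genotypes with a functional allele the gene was higher at 39 than at 33 DAP. The log2 differences were 1.79 in WT and 2.89 in CmNOR/Cmnor (adjusted p = 1.2e-10 and 6.4e-15). In Cmnor the log2 difference was 0.16, on a scale that understates changes of low genes. There too every library at 39 DAP lay above every library at 33 DAP.

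The neighbours of MELO3C016268.2 differed among themselves. CSLG3 MELO3C016270.2, separated from MELO3C016268.2 by the near-silent MELO3C016269.2, was called higher in Cmnor at all 4 stages, with WT means of 8.67 ± 1.57, 2.76 ± 0.313, 4.89 ± 1.19 and 4.86 ± 1.61 FPKM against 22.7 ± 3.30, 8.76 ± 1.62, 17.6 ± 4.64 and 12.04 ± 2.16 FPKM in Cmnor. The log2 ratios were 1.29, 1.36, 1.65 and 1.18 (adjusted p = 4.1e-06, 1.8e-06, 7.6e-08 and 1.7e-05). With the same median only the call at 39 DAP was kept (1.29), the others becoming 0.69, 0.82 and 0.59, and without WT 6 d storage replicate 2 that at 6 d fell to 0.98. Its CmNOR/Cmnor means were 10.6 ± 2.47, 2.66 ± 0.763, 1.86 ± 0.467 and 4.03 ± 0.590 FPKM, called lower than WT at 39 DAP (log2 ratio -1.03, adjusted p = 0.00045), a call that fell to -0.98 with the same median, -0.88 without WT 39 DAP replicate 3 and -0.94 without CmNOR/Cmnor 39 DAP replicate 2. CSLG3 MELO3C016271.2, at the end of the run, was low and also higher in Cmnor, most of all after storage, at 4.73, 5.65 and 4.74 FPKM against 0.121, 0.0685 and 0.0677 FPKM in WT and 0.470, 0.374 and 0.244 FPKM in CmNOR/Cmnor (log2 ratio 2.47 with a standard error of 0.13, adjusted p = 8.7e-16). At 33, 36 and 39 DAP its WT means were 0.251 ± 0.0939, 0.118 ± 0.0219 and 0.136 ± 0.0210 FPKM, its CmNOR/Cmnor means 0.855 ± 0.115, 0.201 ± 0.168 and 0.142 ± 0.0711 FPKM and its Cmnor means 3.23 ± 0.435, 1.96 ± 0.836 and 1.76 ± 0.286 FPKM. As a share of the summed FPKM of the 6 genes, MELO3C016268.2 held 40.7 to 75.8% in WT, 27.1 to 86.9% in CmNOR/Cmnor and 0.290 to 1.57% in Cmnor, and MELO3C016270.2 held 7.56 to 34.3% in WT and 40.0 to 83.7% in Cmnor.

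CSLG2 MELO3C016267.2, on the other side of MELO3C016268.2, was like it lower in Cmnor at 36 and 39 DAP (log2 ratios -1.74 and -2.28, adjusted p = 1.3e-08 and 7e-11). Its libraries at 36 DAP read 8.61, 7.78 and 7.06 FPKM in WT and 1.95, 1.44 and 1.51 FPKM in Cmnor, and at 39 DAP 9.54, 9.07 and 11.9 and 2.08, 0.813 and 1.14 FPKM. At 6 d of storage they read 18.8, 15.2 and 14.2 FPKM in WT and 9.46, 18.7 and 9.75 FPKM in Cmnor. The mutant was thus below WT at 36 and 39 DAP and overlapped it after storage, where 1 Cmnor library stood well above the other 2. At 33 DAP it was called higher in CmNOR/Cmnor, at 7.85, 9.68 and 6.98 FPKM against 3.15, 2.66 and 2.95 FPKM in WT (log2 ratio 1.22 with a standard error of 0.20, adjusted p = 4.5e-05), and Cmnor read 1.66 ± 0.542 FPKM. The remaining CmNOR/Cmnor means were 8.75 ± 1.49, 6.84 ± 0.215 and 17.9 ± 2.61 FPKM.

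CSLG2 MELO3C006455.2, on chromosome 6 and the most abundant of the CSLG genes over the 36 libraries, was lower in Cmnor at 39 DAP, at 14.5, 9.48 and 9.04 FPKM against 37.4, 36.4 and 34.1 FPKM in WT. The libraries did not overlap, and the mean was 3.27 ± 0.917-fold lower (log2 ratio -1.65 with a standard error of 0.14, adjusted p = 1.9e-11). At 33, 36 DAP and 6 d of storage the means were 27.6 ± 0.956, 26.4 ± 5.24 and 38.7 ± 5.43 FPKM in WT and 17.5 ± 0.851, 18.1 ± 2.36 and 23.5 ± 2.45 FPKM in Cmnor, with log2 differences of -0.63, -0.51 and -0.69 that were under the threshold and past it with the same median. The CmNOR/Cmnor means were 29.5 ± 1.77, 35.4 ± 1.51, 38.5 ± 4.003 and 50.8 ± 4.69 FPKM. The CSLG genes MELO3C016263.2 and MELO3C016269.2 and the added CSLG1 locus on chromosome 5 stayed at or under 0.821, 0.154 and 1.94 FPKM in every library and were not called. In total 2 of the 8 CSLG genes were called higher in Cmnor at each stage, and 1, 2, 3 and 1 lower over the 4 stages. The 25% called higher was near the 22.8, 22.9, 19.8 and 21.4% of all genes. Those lower were 12.5, 25, 37.5 and 12.5%, against 6.37, 6.79, 8.65 and 6.81% of all genes, a difference that was not tested.

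**Figure D4:**
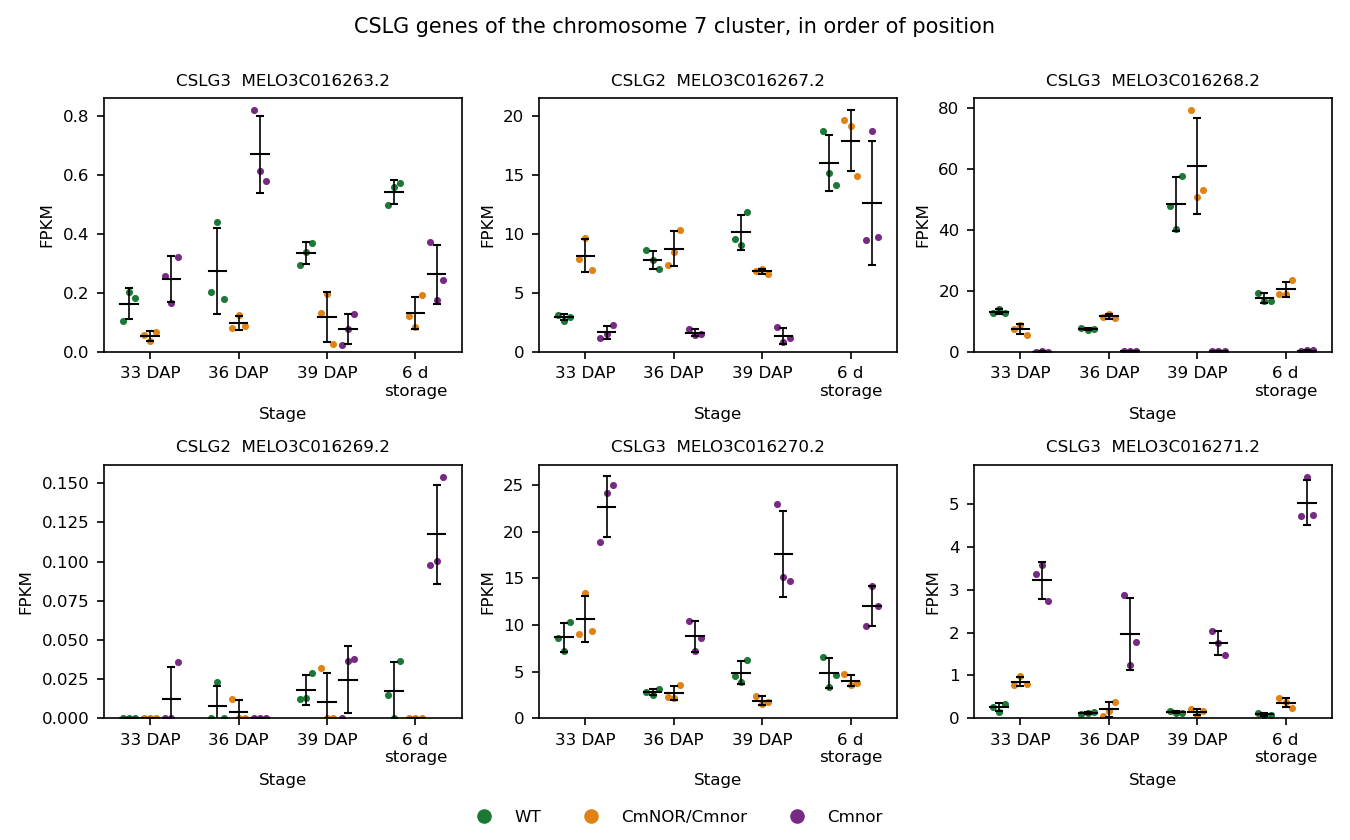
FPKM of the 6 CSLG genes of chromosome 7 by stage and genotype, one panel a gene in the order of their positions, with dots for libraries, bars for the mean of 3 and error bars for the SD. MELO3C016268.2 reaches 48.6 FPKM in WT at 39 DAP and stays under 0.5 FPKM in every Cmnor group, whereas the bars of MELO3C016270.2 and MELO3C016271.2 are highest in Cmnor at each stage.

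CSLH1 MELO3C019295.2 was the only one of 5 CSLH genes, which lie within 105.3 kb of chromosome 11, to be expressed. WT read 17.7 ± 1.40, 17.7 ± 1.76, 24.3 ± 1.04 and 24.7 ± 1.36 FPKM over the stages, CmNOR/Cmnor 14.9 ± 1.49, 18.2 ± 0.464, 24.6 ± 2.06 and 24.1 ± 2.97 FPKM, and Cmnor 10.6 ± 0.804, 10.3 ± 0.213, 11.4 ± 0.348 and 11.7 ± 0.428 FPKM. Cmnor was lower at 39 DAP (11.8, 11.1 and 11.3 FPKM against 24.3, 23.2 and 25.3 FPKM, 2.13 ± 0.112-fold, log2 ratio -1.03 with a standard error of 0.08, adjusted p = 9.2e-12) and at 6 d of storage (2.11 ± 0.140-fold, adjusted p = 1.1e-11). The log2 differences at 33 and 36 DAP, -0.69 and -0.72, were under the threshold. Both calls sat close to it: the value at 39 DAP was -0.997 without WT 39 DAP replicate 3, and that at 6 d was -0.97 without WT 6 d storage replicate 2 and -0.99 without Cmnor 6 d storage replicate 1, while all 4 stages were called with the same median. The CSLB4 gene MELO3C018830.2, the single member of its class, ranged from 0.595 to 4.27 FPKM over the libraries and was not called in any comparison, with WT means of 1.08 ± 0.127, 1.75 ± 0.311, 2.2002 ± 0.300 and 1.85 ± 0.167 FPKM, CmNOR/Cmnor means of 0.658 ± 0.0874, 1.01 ± 0.205, 1.20 ± 0.240 and 1.51 ± 0.354 FPKM and Cmnor means of 2.02 ± 0.290, 1.68 ± 0.345, 3.42 ± 0.730 and 2.53 ± 0.453 FPKM.

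In the comparison of CmNOR/Cmnor with the same WT libraries, fewer of the 37 genes were called than in Cmnor. At 33 DAP 4 were higher and 0 lower (10.8 and 0%, against 1.88 and 0.98% of all genes). At 36 DAP 4 were higher and 1 lower (10.8 and 2.70%, against 1.06 and 1.22%). At 39 DAP 0 were higher and 2 lower (0 and 5.41%, against 1.04 and 2.38%), and at 6 d of storage 0 and 0, against 0.454 and 0.904%. The share called higher was above that of all genes at 33 and 36 DAP, a difference that was not tested. The counts of 0 came from limma, and at an unadjusted p under 0.05 they were 5 lower at 33 DAP, 2 higher at 39 DAP, and 6 higher and 6 lower at 6 d. The 4 higher genes at 33 DAP were CSLD5 MELO3C017933.2, the short model MELO3C000392.2, CSLG2 MELO3C016267.2 and CSLE6 MELO3C024951.2, and those at 36 DAP were 4 of the 5 CSLD5 models, MELO3C017931.2, MELO3C017933.2, MELO3C032635.2 and MELO3C000392.2. The lower genes were CSLD3 MELO3C021821.2 at 36 and 39 DAP and CSLG3 MELO3C016270.2 at 39 DAP. The call of MELO3C000392.2 at 33 DAP was lost with log2(FPKM + 0.1) (adjusted p = 0.1) and without CmNOR/Cmnor 33 DAP replicate 1 (log2 ratio 0.94). Leaving out WT 39 DAP replicate 3 or CmNOR/Cmnor 39 DAP replicate 2 brought the count at 39 DAP from 2 to 1. With the same median the calls at 39 DAP split into 1 higher and 1 lower, instead of 0 and 2. The phloem genes moved in part with this pattern, with sums of 1332 to 3153, 725 to 838, 139 to 222 and 82.6 to 136 FPKM in CmNOR/Cmnor over the stages against 383 to 509, 65.7 to 90.3, 99.6 to 105 and 61.8 to 79.3 FPKM in WT. Called higher were 11, 7, 5 and 1 of the 33 (33.3, 21.2, 15.2 and 3.03%), and the part of these genes in the pattern was not tested.

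**Figure D5:**
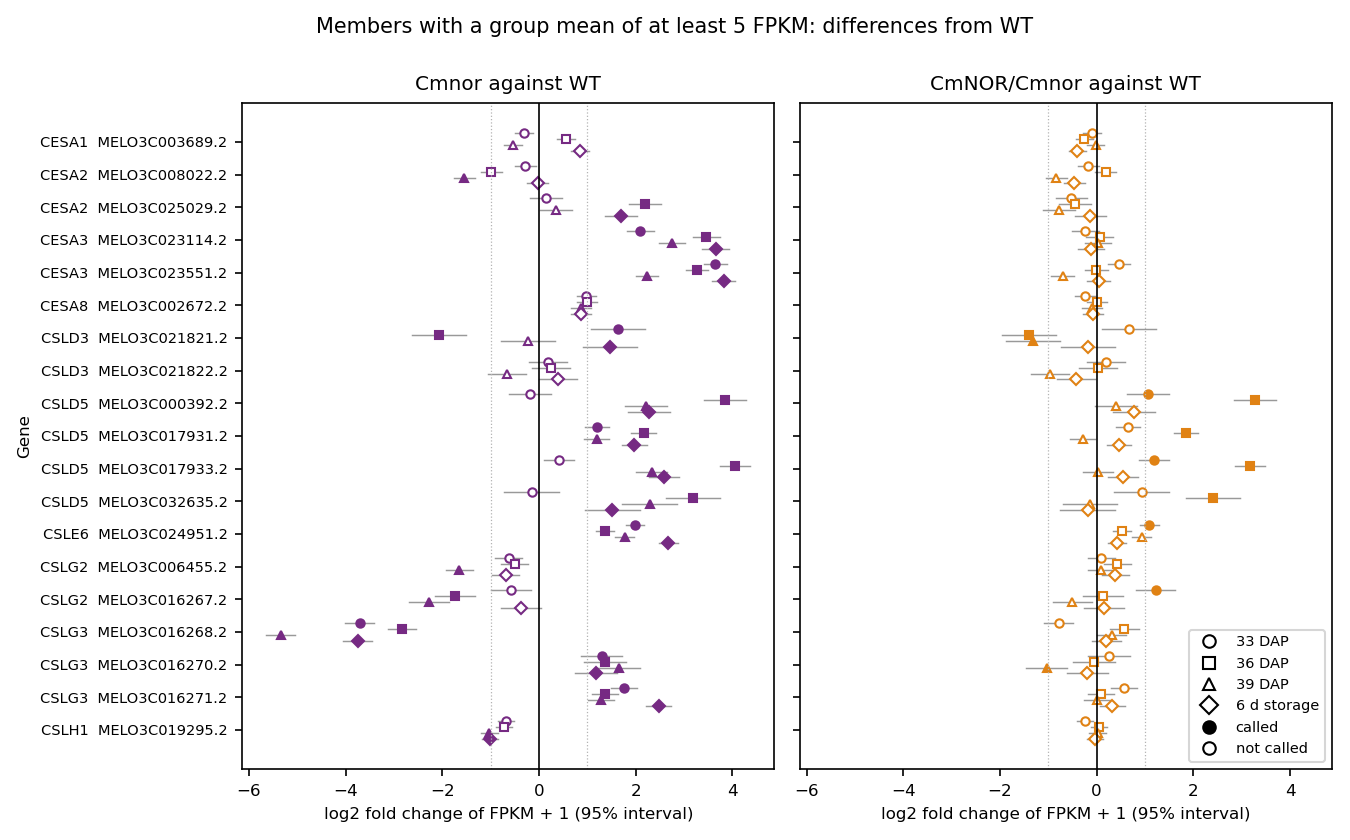
Log2 fold change against WT, with its 95% interval, for the 19 members with a group mean of at least 5 FPKM, at the 4 stages, for Cmnor (left) and CmNOR/Cmnor (right). Filled symbols are called and open ones are not; the filled symbols of CmNOR/Cmnor are found in CSLD, CSLG and CSLE genes and in no CesA gene, whereas in Cmnor both CESA3 genes lie between 2.09 and 3.82 at all stages.

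Against CmNOR/Cmnor, averaged over the 4 stages, Cmnor had 9 of the 37 genes higher and 3 lower, against 21.4 and 5.35% of all genes. The differences with the greatest size were those of CSLG3 MELO3C016268.2 (-3.98, adjusted p = 8.1e-27), CESA3 MELO3C023551.2 (3.29, adjusted p = 2.7e-27) and CESA3 MELO3C023114.2 (3.05, adjusted p = 5.5e-25). CSLG2 MELO3C016267.2 and MELO3C006455.2 were also lower (-1.4957 and -1.12). Among the others CSLG3 MELO3C016270.2 and MELO3C016271.2 were higher by 1.63 and 1.47, and CESA2 MELO3C025029.2 by 1.56. CSLE6 MELO3C024951.2, CSLD5 MELO3C017933.2, CSLD4 MELO3C015689.2 and CESA8 MELO3C002672.2 were higher by 1.21, 1.11, 1.03 and 1.03 on the log2 scale. The last 5 named fell under the fold threshold with the same median, at 0.93, 0.54, 0.54, 0.85 and 0.53, and the split of the calls became 4 higher and 5 lower.

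Within WT, ripening on the plant from 33 to 39 DAP brought 2 of the 37 genes up and 3 down, against 3.67 and 3.35% of all genes. The genes that rose were CSLG3 MELO3C016268.2 (1.79) and CSLG2 MELO3C016267.2 (1.5026, adjusted p = 7.4e-07). Those that fell were CSLD5 MELO3C017933.2 (-2.78, adjusted p = 6.2e-14) and both short CSLD5 models. In CmNOR/Cmnor 1 rose and 6 fell, against 3.37 and 4.91%, with CSLD5 MELO3C017933.2 at -3.95 and MELO3C017931.2 at -1.83 (adjusted p = 2.8e-17 and 2.9e-12) and CSLG3 MELO3C016270.2 at -2.02 (adjusted p = 8.6e-09). In Cmnor 0 rose and 1 fell by limma, against 2.9 and 3.63%, and 5 were higher at an unadjusted p under 0.05. The gene that fell was CSLD3 MELO3C021821.2 (-1.44, adjusted p = 8.3e-05), which also fell in CmNOR/Cmnor (-1.58, adjusted p = 2.5e-05). With the same median the WT count became 2 and 5.

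The change from 33 to 39 DAP differed between Cmnor and WT in 9 of the 37 genes, 3 higher and 6 lower, against 15.9% of all genes, and between CmNOR/Cmnor and WT in 7, 1 higher and 6 lower, against 5.03%. CESA3 MELO3C023551.2 went from 2.24 to 4.37 FPKM in WT, from 3.48 to 2.30 FPKM in CmNOR/Cmnor and from 39.6 to 24.3 FPKM in Cmnor, with differences from WT of -1.41 in Cmnor and -1.17 in CmNOR/Cmnor on the log2 scale (adjusted p = 4.9e-08 and 4.5e-06). CESA2 MELO3C008022.2 went from 54.8 to 99.96 FPKM in WT and from 44.9 to 33.5 FPKM in Cmnor (difference -1.27, adjusted p = 8.5e-08). CSLG3 MELO3C016268.2 was near 0 in Cmnor, where a change is understated on this scale. Its change was smaller there than in WT (difference -1.63, adjusted p = 2.4e-07). It was larger in CmNOR/Cmnor than in WT by 1.09 (adjusted p = 0.00024), which fell to between 0.89 and 0.97 without CmNOR/Cmnor 33 DAP replicate 3, WT 39 DAP replicate 2 or CmNOR/Cmnor 39 DAP replicate 1. For CSLD5 MELO3C017933.2 the change was -2.78 in WT, -3.95 in CmNOR/Cmnor and -0.86 in Cmnor, and both genotypes differed from WT (-1.17 and 1.92, adjusted p = 0.00018 and 3.4e-08).

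Storage from 36 DAP to 6 d changed 1 gene up and 2 down in WT, against 3.99 and 4.3% of all genes. CSLD3 MELO3C021821.2 fell from 13.1, 5.54 and 11.3 to 0.661, 0.0841 and 0.104 FPKM (log2 ratio -3.05 with a standard error of 0.27, adjusted p = 5.3e-10), and CSLE6 MELO3C024951.2 from 119 ± 10.3 to 57.2 ± 1.84 FPKM (-1.03, adjusted p = 6.3e-10, which became -0.99 both with the same median and without WT 36 DAP replicate 1). CSLG3 MELO3C016268.2 rose from 7.54 ± 0.358 to 17.6 ± 1.57 FPKM (1.12, adjusted p = 3.9e-07). In this comparison the WT count was 5 instead of 3 without WT 6 d storage replicate 3.

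In CmNOR/Cmnor 0 rose and 6 fell (1 and 6 with the same median), against 2.76 and 5.14%, and 7 were higher at an unadjusted p under 0.05. The 6 were the same 4 CSLD5 models as at 36 DAP against WT, CSLD3 MELO3C021821.2 and CSLE6 MELO3C024951.2, with MELO3C017933.2 at -2.62 and MELO3C017931.2 at -1.63 (adjusted p = 1e-13 and 2.6e-11). In Cmnor 3 rose and 4 fell, against 5.52 and 6.61%. Those that rose were CSLG2 MELO3C016267.2 (2.31, adjusted p = 1.6e-10), CSLE1 MELO3C024950.2 (1.62, adjusted p = 4.9e-18) and CSLG3 MELO3C016271.2 (1.06, adjusted p = 8.8e-08), the last falling short with the same median (0.99) or without Cmnor 36 DAP replicate 2 (0.88) or Cmnor 6 d storage replicate 2 (0.99). Those that fell were CSLD5 MELO3C017933.2 (-1.46, adjusted p = 4.5e-09), CESA2 MELO3C025029.2 (-1.41, adjusted p = 1.9e-08) and both short CSLD5 models, of which MELO3C032635.2 was lost with log2(FPKM + 0.1) (adjusted p = 0.055).

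The storage response differed from that of WT in 8 genes in Cmnor, 5 higher and 3 lower, against 18.1% of all genes, and in 4 genes in CmNOR/Cmnor, those same CSLD5 models and all lower, against 1.63%. CSLD3 MELO3C021821.2 had the greatest difference, 3.53 on the log2 scale (adjusted p = 1.7e-08), since it went from 9.95 to 0.283 FPKM in WT and from 1.502 to 2.48 FPKM in Cmnor. It rests on the WT libraries at 36 DAP whose heat shock sums spread from 4844 to 11020 FPKM, and was 3.31 to 3.87 when 1 of them was left out. CSLE6 MELO3C024951.2 fell in WT and stood at 0.28 in Cmnor, a difference of 1.32 (adjusted p = 3.7e-09). CSLD5 MELO3C017933.2 was low in WT at both times and fell in Cmnor and CmNOR/Cmnor, with differences of -1.47 and -2.63 (adjusted p = 2e-06 and 6.7e-09).

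Genes that work beside these enzymes are given against the shares of all genes called higher in Cmnor, 22.8, 22.9, 19.8 and 21.4% over the 4 stages. Of 15 partners of cellulose synthesis, such as COBRA and chitinase-like proteins, 4, 3, 2 and 5 were called higher and 1, 1, 1 and 0 lower in Cmnor, so that 26.7, 20, 13.3 and 33.3% were higher, near those shares at 33 and 36 DAP, below at 39 DAP and above at 6 d. The COBRA gene MELO3C017242.2, whose Arabidopsis counterpart guides cellulose deposition, had a mean of 79.7 ± 9.97 FPKM in Cmnor at 36 DAP, against 7.52 ± 2.14 FPKM in WT (log2 ratio 3.27, adjusted p = 2e-18). COBRA-like MELO3C026307.2 went the other way, from 94.1 ± 17.8 to 4.49 ± 0.823 FPKM at 39 DAP (log2 ratio -4.11, adjusted p = 1.3e-16), and stood at 17.1 ± 1.64 FPKM in CmNOR/Cmnor. Of 7 genes that supply UDP-glucose, 2 were higher at each stage (28.6%). Called lower were 0, 2, 3 and 1 (0, 28.6, 42.9 and 14.3%), against 6.37, 6.79, 8.65 and 6.81% of all genes. Sucrose synthase MELO3C025101.2, which the study names, had a mean of 443 ± 57.3 FPKM in Cmnor at 6 d of storage, against 7.45 ± 0.663 FPKM in WT (log2 ratio 5.71, adjusted p = 4.1e-19). The CSLA and CSLC enzymes, which make mannan and the xyloglucan backbone, are described by their activity and so fall outside the 37 genes. Of 11 genes described so, 7, 8, 6 and 7 were called higher (63.6, 72.7, 54.5 and 63.6%) and 0, 1, 1 and 0 lower, among them the glucomannan mannosyltransferase MELO3C021458.2, at 56.3 ± 8.42 FPKM in Cmnor at 36 DAP, against 1.03 ± 0.877 FPKM in WT (log2 ratio 4.89, adjusted p = 8e-18). Summed, the 11 stood at 52.2, 60.8, 130.5 and 33.9 FPKM in WT and at 133, 115, 70.2 and 133 FPKM in Cmnor over the stages. The sum was thus lower in Cmnor at 39 DAP, where most of the WT level was in MELO3C016842.2, described at the end. In WT only 2, 3, 2 and 2 of the 11 reached a group mean of 1 FPKM. The median log2 ratio of the 11 was 1.42, 1.98, 1.27 and 1.18 over the stages, and 1.13, 1.45, 1.02 and 0.95 with the same median. That of the 15 partners was 0.12, 0.26, 0.00 and 0.56, and 0.00, 0.00, -0.02 and 0.16 with the same median.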

How the data were processed

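RNA was measured in 36 libraries of fruit flesh, from WT, Cmnor and their heterozygote, at 3 times on the plant and after 6 d of storage. Per the study's methods the authors prepared libraries with a TruSeq kit, aligned reads with HISAT2 to the melon DHL92 genome and deposited FPKM per gene. The submitters' processing notes also list TopHat2, StringTie and Cufflinks, with no role or version stated in those sources. The FPKM of a library summed to between 592372 and 672851, and libraries of a group correlated at 0.968 to 0.995 on the log2 scale. Depth was read from the steps between low values.

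Of 25121 named genes, 220 were at 0 in every library. The other 24901 were fitted as log2(FPKM + 1) with limma 3.58.1 (R 4.3.3, trend), in 1 model of the 12 groups, with Benjamini-Hochberg adjustment per contrast over all of them. Called means a log2 ratio of 1 or more in size with an adjusted p under 0.05. FPKM is not a count, so no count model was used. The fit was tested on simulated data. Contrasts set Cmnor and CmNOR/Cmnor against WT at each stage, Cmnor against CmNOR/Cmnor over the stages, 6 d storage against 36 DAP and 39 against 33 DAP within a genotype, and the differences of these changes from WT. The members, the lists of other genes and the markers were chosen with earlier results of these data known.

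Values are given for CSLD5 MELO3C017933.2, the most abundant member of each class, up to 3 highest and 3 lowest called changes per contrast among members of at least 5 FPKM without overlap, and members called in a difference of changes. Other members named were picked after their values were seen. Alternatives were a pseudocount of 0.1, a filter of 1 FPKM in 3 libraries, libraries scaled to the same median or upper quartile, a replicate block, only the libraries compared, no fold threshold, each library left out in turn and, added after seeing the data, the 2 short CSLD5 models left out. The level of CmNOR itself was not analysed here, and no sequences are shown.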

Additional observations from a re-analysis of the deposited data

Results flagged for a closer look

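Each value below is the log2 change of a gene in 1 genotype minus its change in WT, drawn out because a test of that difference itself, an interaction term in limma, passed the threshold of an adjusted p under 0.05 and a size of at least 1. All use the same WT libraries.

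For storage, from 36 DAP to 6 d, the differences of Cmnor from WT were 3.53 for CSLD3 MELO3C021821.2, 1.54 for CSLE1 MELO3C024950.2, 1.37 for CSLG2 MELO3C016267.2, 1.32 for CSLE6 MELO3C024951.2 and 1.10 for CSLG3 MELO3C016271.2, all higher in Cmnor. Those of the CSLD5 models were lower, at -1.47 for MELO3C017933.2, -1.67 for MELO3C032635.2 and -1.57 for MELO3C000392.2. That of MELO3C032635.2 had an adjusted p of 0.082 with log2(FPKM + 0.1). The value of MELO3C016271.2 became 0.92 without Cmnor 36 DAP replicate 2. In CmNOR/Cmnor 4 of the 5 CSLD5 models differed from WT, at -2.63 for MELO3C017933.2, -1.38 for MELO3C017931.2, -2.59 for MELO3C032635.2 and -2.50 for MELO3C000392.2.

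For ripening on the plant, from 33 to 39 DAP, the differences of Cmnor from WT were 1.92 for CSLD5 MELO3C017933.2, 2.44 for MELO3C032635.2 and 2.39 for MELO3C000392.2, whose decrease was larger in WT. They were -1.85 for CSLD3 MELO3C021821.2, -1.70 for CSLG2 MELO3C016267.2, -1.63 for CSLG3 MELO3C016268.2, -1.41 for CESA3 MELO3C023551.2, -1.27 for CESA2 MELO3C008022.2 and -1.02 for CSLG2 MELO3C006455.2. The last was between -0.91 and -0.995 when 1 of 5 libraries was left out (WT 33 DAP replicate 1, Cmnor 33 DAP replicate 1, WT 39 DAP replicate 1, Cmnor 39 DAP replicate 2 or 3) and -0.77 with every library at the same median. In CmNOR/Cmnor the differences from WT were -1.17 for CSLD5 MELO3C017933.2, -1.99 for CSLD3 MELO3C021821.2, -1.15 for CSLD3 MELO3C021822.2, -1.72 for CSLG2 MELO3C016267.2, -1.29 for CSLG3 MELO3C016270.2, -1.17 for CESA3 MELO3C023551.2 and 1.09 for CSLG3 MELO3C016268.2. The value of MELO3C021822.2 became -0.97 without WT 33 DAP replicate 2. Both genotypes thus differed from WT in MELO3C017933.2, in opposite directions, and in MELO3C021821.2, MELO3C016267.2 and MELO3C023551.2, in the same direction.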

How the results depend on the processing

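Of 132 calls of single genes, 0 reversed under the alternatives run. Lost were 3 with log2(FPKM + 0.1), 0 with only genes of at least 1 FPKM in 3 libraries, 17 with every library at the same median, 14 with the same upper quartile, 1 with only the libraries compared, and 21 of 1176 values with 1 library left out. Fitted with a replicate block all 132 were kept, and the counts of called genes ran from 0 to 15 as without it. Same-numbered libraries did not deviate together in the median (198 pairs, correlation -0.41 to 0.72, median 0.0019), but 44 of these pairs exceeded 0.1. Whether the numbers pair libraries of some groups cannot be told from these values. Of 308 counts under an alternative, 277 were within 1.5 times. With log2(FPKM + 0.1) the count became 14 for Cmnor against WT at 33 DAP, 4 and 3 for CmNOR/Cmnor at 39 DAP and 6 d, 7 and 10 for storage in WT and CmNOR/Cmnor, and 3 for ripening in Cmnor. Without a fold threshold it was 22, 26, 25 and 26 for Cmnor against WT over the 4 stages, 12, 10, 11 and 7 for CmNOR/Cmnor, 14, 17 and 22 for storage and 21, 17 and 16 for ripening in WT, CmNOR/Cmnor and Cmnor, 29 for Cmnor against CmNOR/Cmnor, 18 for the difference of storage in Cmnor, and 20 and 13 for that of ripening in Cmnor and CmNOR/Cmnor. Without the 2 short CSLD5 models, an alternative chosen after seeing the data, it was 3 for CmNOR/Cmnor at 36 DAP, 3 for ripening in WT and 2 for the difference of storage in CmNOR/Cmnor. With 1 library left out the counts ranged from 1 to 3 for CmNOR/Cmnor at 39 DAP, 3 to 5 for storage in WT and 1 to 2 for ripening in Cmnor. The causes of these changes were not tested beyond what each setting removes. With 3 libraries a group and FPKM in place of counts, counting error per gene is unknown, genes near 0 are compressed by the pseudocount, and near copies within a cluster may share fragments.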

Other observations

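Of 14 endoglucanases, 3, 3, 1 and 3 were called higher in Cmnor at 33, 36, 39 DAP and 6 d of storage and 0, 0, 1 and 0 lower. The shares called higher, 21.4, 21.4, 7.14 and 21.4%, were near or below those of all genes (22.8, 22.9, 19.8 and 21.4%), and the genes named here were chosen after their values were seen. Endoglucanase 6-like MELO3C005748.2 stood at 67.1 ± 10.9 FPKM in Cmnor at 36 DAP, against 0.104 ± 0.0447 FPKM in WT (log2 ratio 5.93, adjusted p = 1e-19 by limma). Endoglucanase 5 MELO3C023598.2 read 0.141 ± 0.130 and 22.2 ± 2.74 FPKM at 6 d of storage (log2 ratio 4.34, adjusted p = 8e-25). The endoglucanase 25-like gene MELO3C016421.2, of the KORRIGAN type that in Arabidopsis takes part in cellulose synthesis, stood at 33.7 ± 1.68 FPKM in Cmnor after storage, against 6.20 ± 0.350 FPKM in WT (log2 ratio 2.27, adjusted p = 2.5e-14).

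Of 16 genes that act on xyloglucan side chains, 4, 6, 3 and 4 were called higher in Cmnor and 2, 1, 3 and 1 lower over the stages. The shares called higher, 25, 37.5, 18.8 and 25%, were near those of all genes except at 36 DAP, and the median log2 ratio was 0.55, 0.56, 0.22 and 0.50, or -0.02, -0.06, -0.13 and 0.09 with every library at the same median. Xyloglucan glycosyltransferase 12 MELO3C016842.2, a CSLC-type enzyme of the xyloglucan backbone, is not among these 16 genes. It was lower in Cmnor at 39 DAP, at 31.3 ± 6.44 against 127 ± 5.28 FPKM in WT (log2 ratio -2.01, adjusted p = 1.5e-07), and higher after storage, at 109 ± 13.8 against 31.3 ± 19.3 FPKM (log2 ratio 1.92, adjusted p = 3e-07).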
